A study of Mus musculus with 6 samples.

Results

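Interstitial macrophages 2 are 189 of the 55882 cells to which the authors gave a class in mouse lung, and 159 of them came from postnatal day 21. The members are the cells with that class name in the authors' deposited annotation of all 6 libraries. The label was checked against 3 genes: C1qa, which encodes a chain of the complement component C1q, Cx3cr1, the fractalkine receptor, and Mrc1, the mannose receptor.

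The mice were wild-type C57BL/6N. Each library was made from a pool of lung tissue of 3 mice, as dissociated live cells with 10x Genomics 3' chemistry, in which each captured mRNA molecule counts as 1 UMI (unique molecular identifier). The groups were female and male room air (21% oxygen) at day 1, female and male room air at day 21, and female and male hyperoxia at day 21. Hyperoxia was 95% oxygen from day 1 to day 5, followed by room air until day 21, so the day 21 cells were taken after recovery. Each combination of sex, age and treatment is 1 library. The 2 pools of a treatment are 1 of each sex, and the fit takes out the sex difference that both treatments share. The p-values of the treatment fit therefore set the change against how unlike it was in the 2 sexes, with this spread moderated over genes. They do not measure the spread between pools of 1 sex. The class comparisons take out differences between libraries in the same way.

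Interstitial macrophages live in the connective tissue of the lung around vessels, nerves and airways, apart from the alveolar macrophages of the air spaces. In the adult mouse they are commonly divided into cells rich in Lyve1, Mrc1 and Folr2 near vessels and cells rich in MHC class II and Cx3cr1 that lie near nerves. MHC class II molecules present peptides to CD4+ T cells, C1q marks dying cells and immune complexes for uptake, and Ly6C+ monocytes that enter through the receptor Ccr2 replenish part of the population.

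The class held 13 cells in the female and 17 in the male day 1 room air library. At day 21 it held 53 cells in female room air, 51 in male room air, 28 in female hyperoxia and 27 in male hyperoxia. The median depth of these cells was 13238 to 14555 UMIs per library, and the libraries held 122173482 to 163649658 UMIs in all. Any pair of libraries shared 26 to 62 cell barcodes (0.247% to 0.465% of the smaller library), and none of the shared barcodes was in the class in both libraries.

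Before the results, 2 libraries stand apart. In male room air at day 21, C1qa and Mrc1 were far lower than in the other day 21 libraries. In female hyperoxia, 14 of 28 cells had no UMI of Xist, the X-inactivation RNA that females transcribe, while 92.5% of the cells in female room air had one. The treatment and sex fits were therefore also run without these cells and without male room air. Among the gene lists, MHC class II, complement, interferon-stimulated, glucocorticoid, costimulation and nonclassical monocyte genes were followed through those treatment fits. The other lists were not.

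The label held in part. C1qa reached 1478 CPM (UMIs of the gene per 1000000 UMIs of the class; Poisson 95% interval 1393 to 1566) in female room air, 1003 (901 to 1113) in female hyperoxia and 1233 (1126 to 1349) in male hyperoxia. In male room air it reached 103 CPM (81.8 to 129). The intervals cover counting error only. Mrc1 stood at 288 CPM in female room air, 352 in female hyperoxia, 241 in male hyperoxia and 19.9 in male room air. Male room air thus lay below the other 3 libraries for both genes, with intervals that did not overlap. Cx3cr1 varied less across the 4 libraries, at 396, 294, 313 and 323 CPM in female room air, male room air, female hyperoxia and male hyperoxia, with female room air the highest. Lyve1 was at 19.6 CPM or less and Folr2 had no UMI in any of the 6 libraries. Over all 14 markers of the perivascular type, which do not include Mrc1, the summed level was 1401 CPM in female room air, 324 in male room air, 1162 in female hyperoxia and 856 in male hyperoxia, and 4, 9, 4 and 4 of the markers had no UMI. Pf4, a gene of that list, stood at 319, 0, 310 and 84.6 CPM in the same order.

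C1q was present in a minority of the cells and was then abundant. C1qa, C1qb and C1qc encode the 3 chains of C1q and lie side by side on chromosome 4. Of the 159 day 21 cells, 107 had no UMI of any of the 3 genes and 37 had UMIs of all 3. Cells with 10 or more C1q UMIs were 18 of 53 (34%, exact binomial 95% interval 21.5% to 48.3%) in female room air, 9 of 28 (32.1%, 15.9% to 52.4%) in female hyperoxia and 10 of 27 (37%, 19.4% to 57.6%) in male hyperoxia. In male room air they were 3 of 51 (5.88%, 1.23% to 16.2%). The male room air share lay below the 3 others, and its interval overlapped only that of female hyperoxia. To set depths equal, each cell was thinned to 2000 UMIs, which left out 1 cell of female hyperoxia. After thinning, C1qa was found in 32.1%, 3.92%, 29.6% and 37% of the cells of female room air, male room air, female hyperoxia and male hyperoxia (34%, 3.92%, 35.7% and 40.7% before thinning). In nonclassical monocytes, which should lack C1qa, it was found in 0% to 0.203% of the thinned cells, at median depths of 7691 to 9487 UMIs.

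What nearly all cells of the class shared was MHC class II. After thinning, H2-Aa, the alpha chain of I-A, was found in 88.7% of the cells of female room air, 86.3% of male room air, 88.9% of female hyperoxia and 88.9% of male hyperoxia. The same measure gave 1.34% to 2.64% in nonclassical monocytes and 100% in dendritic cells. Counting cells with at least 10 UMIs, 97 of the 159 had H2-Aa and under 10 C1q UMIs, 38 had both, 2 had C1q without H2-Aa and 22 had neither. C1q-rich cells were therefore a subset of the H2-Aa-rich cells, apart from 2.

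The MHC class II genes are read out together through the transactivator Ciita, which is recruited by factors bound to conserved boxes upstream of each gene. One of them is the Y box, bound by NF-Y. Promoter windows from 250 bases before to 50 bases after the gene start were taken from RefSeq (GRCm38.p6), and the 7 letters TGATTGG, the core of that box, were searched on both strands. Of the 11 genes of the MHC class II list, 8 had a window in the table and 7 of these (87.5%) held the letters, each on the gene's own strand and 45 to 102 bases before the start. Over all 32851 windows of 300 bases, 7.82% held the letters on either strand and 4.01% on the gene's strand. H2-DMa had windows without these letters. A match describes the letters only, and factor binding was not measured. The windows of 3 genes are shown with the match in capitals. In each day 21 library of the class these genes were above the monocytes and alveolar macrophages. The windows are those of H2-Aa at chr17:34287774-34288073 (minus strand, match 50 bases before the start), H2-Eb1 at chr17:34305617-34305916 (plus strand, 61 bases before) and H2-DMb1 at chr17:34152941-34153240 (plus strand, 63 bases before).
H2-Aa: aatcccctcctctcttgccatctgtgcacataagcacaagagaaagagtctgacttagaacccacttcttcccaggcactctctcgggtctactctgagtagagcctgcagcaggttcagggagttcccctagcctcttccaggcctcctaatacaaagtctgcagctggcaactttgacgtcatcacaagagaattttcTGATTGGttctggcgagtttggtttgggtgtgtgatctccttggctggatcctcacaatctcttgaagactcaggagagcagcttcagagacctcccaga
H2-Eb1: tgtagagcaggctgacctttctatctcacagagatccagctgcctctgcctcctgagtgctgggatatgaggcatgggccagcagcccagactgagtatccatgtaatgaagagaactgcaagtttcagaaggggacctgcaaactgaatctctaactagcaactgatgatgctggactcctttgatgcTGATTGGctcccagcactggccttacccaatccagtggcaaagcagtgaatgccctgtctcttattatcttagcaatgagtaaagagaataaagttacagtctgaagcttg
H2-DMb1: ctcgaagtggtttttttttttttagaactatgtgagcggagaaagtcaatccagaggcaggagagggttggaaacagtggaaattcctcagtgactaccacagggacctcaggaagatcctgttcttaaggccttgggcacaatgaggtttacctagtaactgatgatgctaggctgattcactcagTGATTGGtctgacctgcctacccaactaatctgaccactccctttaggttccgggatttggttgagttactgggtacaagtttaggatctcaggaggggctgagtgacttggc

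Each of these genes was far above the levels in the monocytes and alveolar macrophages. H2-Aa stood at 3974 CPM in female room air, 2632 in male room air, 4495 in female hyperoxia and 4154 in male hyperoxia, against 4.74 to 21.1 CPM over all libraries of alveolar macrophages, classical monocytes and nonclassical monocytes. H2-Eb1, the beta chain of I-E, stood at 2820, 1330, 2759 and 2882 CPM in the same order, against 3.42 to 15.4. Cd74, the invariant chain that occupies the peptide groove during assembly, stood at 12818, 8525, 12959 and 12278 CPM, against 30.9 to 268. Ciita stood at 175, 101, 116 and 182 CPM, against 0.141 to 5.2. H2-DMb1, a subunit of the peptide exchanger H2-M, stood at 393, 320, 443 and 431 CPM, against 10.3 to 42.3. Male room air was the lowest of the 4 libraries for all 5 genes. Dendritic cells stood higher still, with H2-Aa at 5477 to 8762 CPM.

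Naming the genes by 1 rule, the largest smallest ratio to those 3 classes in every day 21 library, gave C1qa, H2-Aa, H2-Ab1, C1qb, H2-Eb1, C1qc, Cd74, Ciita, Slamf7, H2-DMb1, Tmem176a, Tmem176b, Aif1, Rnf150 and Batf3. Of 2711 genes eligible, 139 were above all 3 classes in every library and 17 by at least 2-fold. Because the authors formed the class from these same counts, the differences are a description without a test. Slamf7, a receptor of the SLAM family, stood at 71.8, 54.4, 82.4 and 100 CPM in female room air, male room air, female hyperoxia and male hyperoxia, at 0.82 to 7.11 in the 3 classes, and at 285 to 388 in dendritic cells and 0 to 82.6 in interstitial macrophages 1. Aif1, which encodes the actin-binding protein IBA1, stood at 479, 469, 349 and 403 CPM, against 0.205 to 116 in the 3 classes, 167 to 275 in dendritic cells and 119 to 367 in interstitial macrophages 1, so that it overlapped the latter. Batf3, a transcription factor best known from cross-presenting dendritic cells, stood at 82.2, 70.3, 90.9 and 94.9 CPM, against 5.65 to 35.5 in the 3 classes and 91.5 to 129 in dendritic cells. Interstitial macrophages 1, the other interstitial class, had only 6 to 8 cells per library at day 21. They held more C1qa (2298 to 6738 CPM) and far less H2-Aa (0 to 248 CPM) than interstitial macrophages 2.

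**Figure D1:**
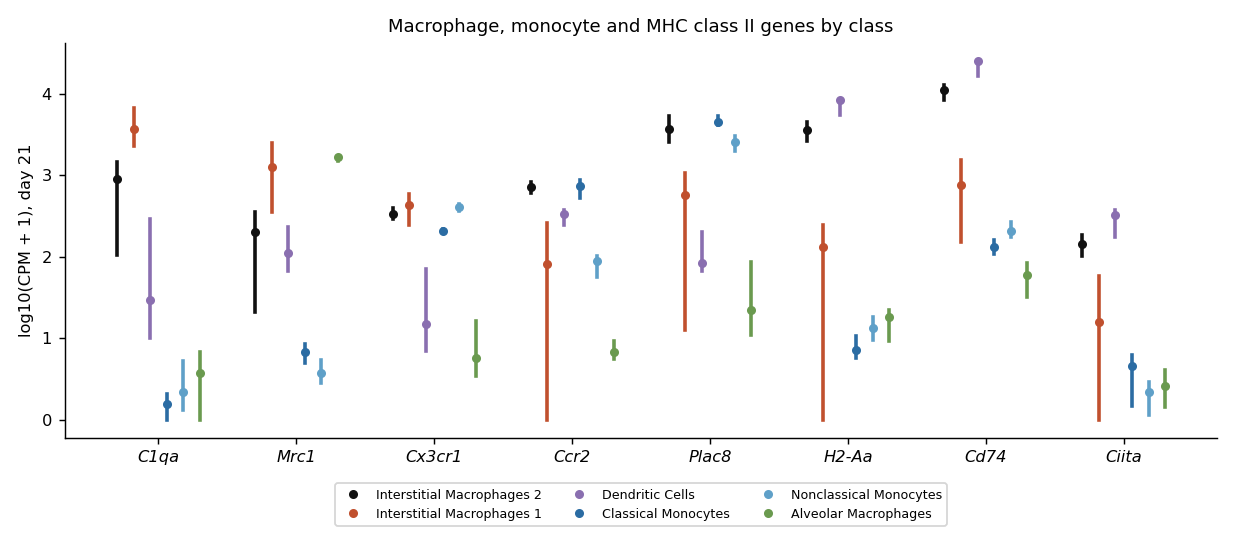
Levels of 8 genes at day 21 on a log10(CPM + 1) axis, for interstitial macrophages 2 and 5 other classes. Each line runs from the lowest to the highest of the 4 libraries and the point is the level in the pooled cells; H2-Aa in the class (2632 to 4495 CPM) lies above the monocytes and below dendritic cells (5477 to 8762), and Ccr2 (605 to 819) overlaps classical monocytes (527 to 867).

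On the authors' deposited map of the day 21 cells the class fell into separate places. With the boundary set at 8 on the second coordinate after the map was seen, 38 cells lay between 4.78 and 6.01 (the lower group) and 121 between 8.45 and 12.6 (the upper group). No cell lay between the groups. The lower group sat beside interstitial macrophages 1 and dendritic cells, and the upper group, apart from 2 cells, beside or between classical and nonclassical monocytes. The lower group held 16 of 53 cells in female room air (30.2%, 18.3% to 44.3%), 4 of 51 in male room air (7.84%, 2.18% to 18.9%), 7 of 28 in female hyperoxia (25%, 10.7% to 44.9%) and 11 of 27 in male hyperoxia (40.7%, 22.4% to 61.2%). These 2 cells, of male hyperoxia, lay at 2.85 and 3.04 on the first coordinate, near the B cells of that library (median 3.61). They held 115 and 80 UMIs of B cell markers and were kept in the upper group.

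**Figure D2:**
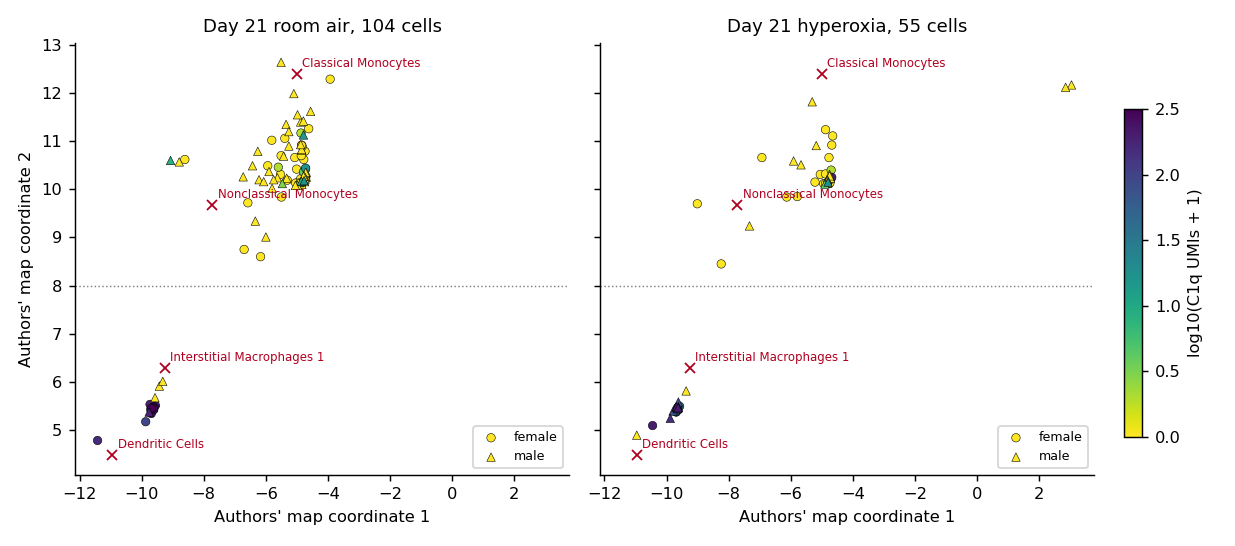
The authors' map coordinates of the 104 room air (left) and 55 hyperoxia (right) cells of the class at day 21, as circles for females and triangles for males, coloured by log10 of the summed C1qa, C1qb and C1qc UMIs plus 1. Crosses mark the median position of 4 other classes and the dotted line the boundary at 8; 33 cells with 10 or more C1q UMIs lie below it and 7 above.

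The lower group carried the macrophage genes. Pooled over the 4 libraries, C1qa stood at 3740 CPM in the lower and 52.3 in the upper group, and Mrc1 at 843 and 8.05. Mertk, a receptor for the uptake of dying cells, stood at 479 and 29.3 CPM. The growth factor Igf1 stood at 251 and 1.15 CPM, the scavenger receptor Stab1 at 226 and 1.15, and the chemokine Pf4 at 739 and 0. Mmp12, macrophage elastase, stood at 358 and 0.575 CPM. These are genes of tissue macrophages, and 33 of the 38 lower cells against 7 of the 121 upper cells had 10 or more C1q UMIs. The 5 lower cells without C1q were 3 of male room air and 2 of male hyperoxia.

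The upper group carried monocyte genes. Plac8, a gene of monocytes and granulocytes, stood at 4671 CPM in the upper and 391 in the lower group, and was found in 120 of 121 upper and 11 of 38 lower cells. Ly6c2, which encodes the surface antigen of classical monocytes, stood at 422 and 24.9 CPM, and Nr4a1, the factor on which nonclassical monocytes depend, at 351 and 95.8. The interferon-stimulated genes Isg15 (210 and 32.6 CPM), Zbp1 (189 and 28.7 CPM) and Ifitm3 (3543 and 437 CPM) were among the genes furthest above the lower group. They were named from that ranking, and the interferon-stimulated list as a whole was not compared between the groups. Ccr2 stood at 698 CPM in the upper and 825 in the lower group. It was found in 102 of 121 upper cells (84.3%, 76.6% to 90.3%) but in 22 of 38 lower cells (57.9%, 40.8% to 73.7%). Cx3cr1 stood at 295 and 473 CPM and was found in 104 of 121 upper and 33 of 38 lower cells. These group differences come from the counts that placed the cells on the map and carry no test.

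MHC class II was common to both. H2-Aa was found in 115 of 121 upper cells (95%, 89.5% to 98.2%), with a median of 23 UMIs per cell, and in all 38 lower cells, with a median of 96. The 11 genes of the MHC class II list summed to 16005 CPM in the upper and 39872 in the lower group. Across 3803 genes, with each profile thinned to 407590 UMIs, the upper group had its highest rank correlation with classical monocytes (Spearman 0.894) and then nonclassical monocytes (0.862), and had 0.632 with interstitial macrophages 1. The lower group had 0.831 with interstitial macrophages 1, 0.716 with dendritic cells and 0.657 with classical monocytes. Genes of 1 sample are not independent replicates, and these values are descriptions of the pooled profiles. Cells of one class name thus resembled different neighbours, with H2-Aa and its partners as the feature that the neighbouring monocytes lacked.

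**Figure D3:**
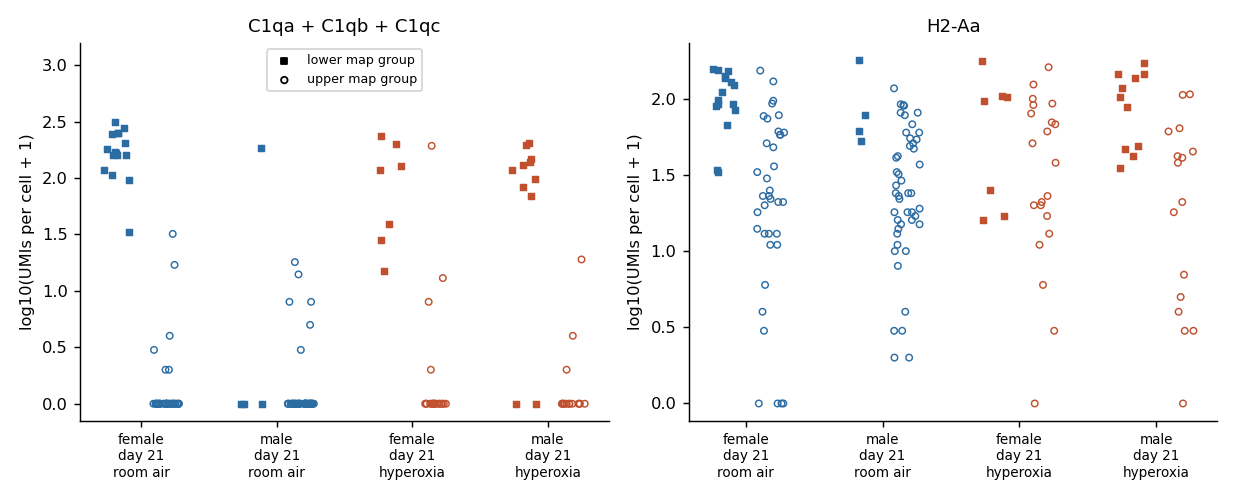
UMIs per cell on a log10(UMIs + 1) axis for the 3 C1q genes summed (left) and H2-Aa (right) in the 4 day 21 libraries; filled squares are cells of the lower and open circles of the upper map group. C1q splits the class into cells at or near 0 and cells with up to 312 UMIs, while H2-Aa spreads over both groups.

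Markers of other cell types were present in part of the class. Over the 8 endothelial markers the summed level was 345 CPM in female room air and 86.2 to 97.4 in the other day 21 libraries. Over the 6 B cell markers it was 117 in female room air, 267 in male room air, 111 in female hyperoxia and 636 in male hyperoxia, and 2 cells in each male library had 10 or more such UMIs. Over the 8 neutrophil markers it was 185 to 326 CPM in 3 libraries and 1631 in male hyperoxia, and over the 8 T and NK cell markers 2.61 to 9.28 in 3 libraries and 221 in male hyperoxia. Fibroblast (9.28 to 36.9 CPM) and erythroid markers (1.31 to 5.68 CPM) were near 0. Doublets called by Scrublet were 3, 2, 0 and 1 of the cells of female room air, male room air, female hyperoxia and male hyperoxia. The part of these markers in the results was not tested beyond the values given with cells left out.

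In the hyperoxia libraries the class made up a smaller share of all cells. It was 0.623% of the cells with a class (0.467% to 0.814%) in female room air and 0.335% (0.223% to 0.484%) in female hyperoxia, a ratio of 0.538 (95% interval 0.341 to 0.849). In males it was 0.721% (0.537% to 0.947%) and 0.296% (0.195% to 0.43%), a ratio of 0.411 (0.258 to 0.654). Each ratio sets 1 library against 1 library, and the intervals of shares and ratios cover counting error of cells only, not the spread between animals or pools. Pooled over both sexes, 104 of 15584 room air cells (0.667%, 0.546% to 0.808%) and 55 of 17477 hyperoxia cells (0.315%, 0.237% to 0.409%) were in the class. Both hyperoxia libraries lay below both room air libraries, but 2 libraries against 2 cannot give a two-sided exact permutation p below 0.333. At day 1 the shares were 0.113% in the female and 0.151% in the male library.

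Other macrophage and monocyte classes also had lower shares in the hyperoxia libraries. Within the macrophage and monocyte classes alone, interstitial macrophages 2 were 2.44% and 2.28% in female room air and hyperoxia, and 2.99% and 2.22% in the male libraries, with overlapping intervals in each sex. The pooled share of alveolar macrophages was 6.14% in room air and 2.54% in hyperoxia, that of classical monocytes 5.75% and 3.28%, and that of nonclassical monocytes 12.2% and 7.78%. Interstitial macrophages 1 stood at 0.0898% (0.0491% to 0.151%) and 0.0744% (0.0396% to 0.127%). A lower share can follow from fewer cells of the class or from more of the other cells recovered, and these cannot be told apart in shares. Of the map groups, the upper made up 0.435% of the cells of female room air and 0.251% of female hyperoxia, and 0.664% and 0.175% of the male libraries. The lower made up 0.188% and 0.0838% of the female and 0.0565% and 0.121% of the male libraries, with overlapping intervals in each sex.

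**Figure D4:**
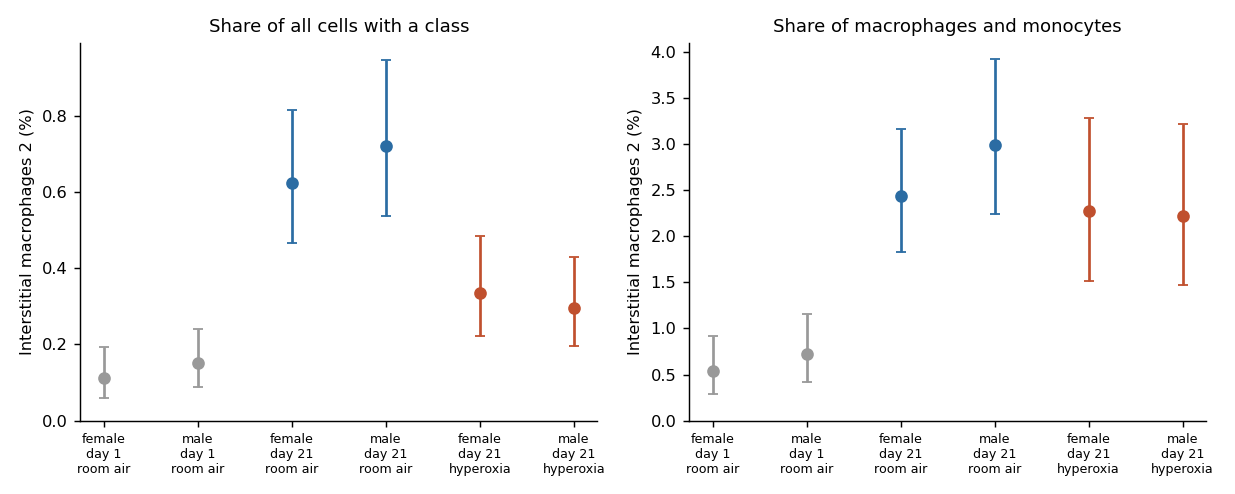
Share of interstitial macrophages 2 in each library, of all cells with a class (left) and of the macrophage and monocyte classes (right), with exact binomial 95% intervals. At day 21 both hyperoxia libraries lie below both room air libraries on the left, while the intervals overlap on the right.

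The effect of hyperoxia on expression within the class was tested on UMI sums per library. In edgeR's quasi-likelihood test with sex as a covariate, 1 of 6762 genes tested was called at a Benjamini-Hochberg adjusted p under 0.05 (0.0148% of genes), higher after hyperoxia, and none was lower. An unadjusted p under 0.05 was reached by 251 genes (3.71%), and DESeq2 called 0. The gene was Retnla, which encodes RELM-alpha, a secreted protein of type 2 immune responses (chromosome 16, GRCm38 48842551 to 48844461). It had 5 UMIs in female room air, 0 in male room air, 97 in female hyperoxia and 1380 in male hyperoxia, or 6.53, 0, 276 and 3539 CPM (log2 change 8.73 ± 0.825 SE, edgeR adjusted p = 0.00541). Retnla passed the filter on low counts through the hyperoxia libraries alone, so the direction of its change was set by the filter. Every SE given with an edgeR change is the size of the change divided by the square root of the test's F statistic. It is not a value that edgeR reports, and for Retnla it does not cover the dependence on single cells or libraries.

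Few cells carried Retnla. It was found in 3 of 53, 0 of 51, 2 of 28 and 4 of 27 cells of female room air, male room air, female hyperoxia and male hyperoxia. A single cell held 97.9% of the UMIs in female hyperoxia and 73.2% in male hyperoxia, and nearly all came from the lower map group (2836 CPM, against 0.575 in the upper). With the highest Retnla cell of each library left out, edgeR called no gene, and 214 genes had an unadjusted p under 0.05. The call was also lost with Scrublet doublets left out (log2 change 8.70), with cells with B cell markers left out (8.78) and with equal numbers of cells (8.25). Leaving out 1 library moved the log2 change more, to 6.33 without male hyperoxia, 8.18 without male room air, 9.99 without female hyperoxia and 12.89 without female room air. The last is set against a lone library with 0 UMIs and depends on the prior count of the fit.

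No member of the MHC class II list was called, and all 7 tested had a log2 change above 0, with a median of 0.327 against 0.00449 over all genes tested. H2-Aa changed by 0.44 ± 0.128 (SE, edgeR unadjusted p = 0.00606, adjusted p = 1) and H2-Ab1, the beta chain of I-A, by 0.51 ± 0.15 (unadjusted p = 0.00704, adjusted p = 1). Both hyperoxia libraries lay above both room air libraries for 3 of the 7 genes, where 15.2% of all genes tested did so. Without male room air the list's median was 0.10, with 6 of 8 genes above 0. Among the upper map group alone, 6 of 7 were above 0 with a median of 0.27. Dendritic cell markers lay above 0 as well: the 10 markers summed to 132 and 105 CPM in female and male room air and to 216 and 238 in female and male hyperoxia, with 4, 3, 6 and 2 of them at 0. Only 3 of the 10, Flt3, Cd209a and Batf3, passed the filter on low counts. They were above 0 with a median of 1.47 (1.21 in the upper map group), and none was called. For all 3 both hyperoxia libraries lay above both room air libraries. Cd209a, with 9 and 6 UMIs in female and male room air and 18 and 21 in hyperoxia, passed the filter through the hyperoxia libraries alone. Its direction was thus set by the filter and adds nothing to these counts. The part of dendritic cells in the MHC class II values was not tested.

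Complement genes changed direction with a single library. Of 13 tested, 10 were above 0, with a median log2 change of 0.63, and none was called. C1qa changed by 1.41 ± 0.763 (edgeR adjusted p = 1). It stood at 103 CPM in male room air and 1233 in male hyperoxia, while the female hyperoxia value of 1003 CPM lay below the female room air value of 1478. Without male room air, 5 of 13 complement genes were above 0 and the median was -0.10, and without each other library it was 0.34 to 1.17. Among the upper map group alone, an alternative chosen after seeing the data, C1qa was called higher (log2 change 3.75, edgeR adjusted p = 0.01), with 11 and 1 UMIs in female and male room air and 68 and 11 in female and male hyperoxia. These are 20.8 and 1.45 CPM in room air and 238 and 46.6 CPM in hyperoxia. C1qa thus passed the filter on low counts there through the hyperoxia libraries alone, and the direction of this call was set by the filter. C1qb had 34 and 40 UMIs in the upper cells of female and male room air and 93 and 7 in those of hyperoxia. C1qc had 9 and 9, then 51 and 4. Among the upper cells, 1 of female hyperoxia held 192 C1q UMIs and 1 of male hyperoxia held 18. The other calls of the fit on the upper group were Igkc and Ly6d, B cell genes with 0 UMIs in the upper female cells, both higher, and Lyz1, lower. Lyz1 had 27 and 65 UMIs in the upper cells of female and male room air and 0 and 1 in those of hyperoxia. It passed the filter through the room air libraries alone.

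Interferon-stimulated genes lay below 0 for the most part, without a call. Of 28 tested, 27 were below 0, with a median log2 change of -0.45, and both hyperoxia libraries lay below both room air libraries for 11 of 28, where 18.2% of all genes did so. Zbp1, a sensor of nucleic acids, stood at 140 and 216 CPM in female and male room air and at 82.4 and 113 in female and male hyperoxia (log2 change -0.83 ± 0.293 SE, edgeR adjusted p = 1). Irf1, a transcription factor of the interferon response, stood at 83.5 and 146 CPM in room air and at 68.2 and 38.5 in hyperoxia. Without male room air, 17 of 27 interferon-stimulated genes were below 0 and the median was -0.09. The median was -0.70 without female room air, -0.72 without female hyperoxia and -0.40 without male hyperoxia, and -0.40 in the upper map group alone. With the female hyperoxia cells without Xist left out, 28 of 28 were below 0 with a median of -0.72. Of the 10 nonclassical monocyte markers 10 were below 0 (median -0.57), against 6 of 9 (median -0.08) without male room air. Both hyperoxia libraries lay below both room air libraries for 1 of the 10, against 18.2% of all genes. None of the 10 had an edgeR unadjusted p under 0.05.

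Genes of costimulation and class I presentation lay on the other side of 0 from the MHC class II list. Of 15 tested, none was called and 11 were below 0, with a median log2 change of -0.40, and both hyperoxia libraries lay below both room air libraries for 7 of the 15, against 18.2% of all genes. Psmb9, a subunit of the immunoproteasome that cuts peptides for class I, stood at 136 and 261 CPM in female and male room air and at 88.1 and 118 in female and male hyperoxia (log2 change -0.88 ± 0.298 SE, edgeR unadjusted p = 0.0144, adjusted p = 1). Tap1, which carries peptides into the endoplasmic reticulum, stood at 99.2 and 198 CPM in room air and at 90.9 and 76.9 in hyperoxia. Among the upper map group alone 12 of 13 were below 0, and without male room air 9 of 14 were, with a median of -0.12.

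Genes that glucocorticoids induce lay above 0 for the most part, whichever library was left out. Of 15 tested, 11 were above 0 (median log2 change 0.44), none was called, and both hyperoxia libraries lay above both room air libraries for 9 of the 15, where 15.2% of all genes tested did so. Without 1 library at a time the median was 0.28 to 0.41. Fkbp5, a chaperone of the glucocorticoid receptor, stood at 366 and 162 CPM in female and male room air and at 403 and 459 in female and male hyperoxia (log2 change 0.84 ± 0.309 SE, edgeR adjusted p = 1). Dusp1, a MAP kinase phosphatase, stood at 709 and 846 CPM in room air and at 940 and 1164 in hyperoxia. Dusp1 is also in the list of genes that dissociation induces, of which 16 of 20 were above 0. Fos, an immediate early gene of that list, stood at 1355 and 1200 CPM in room air and at 1580 and 1857 in hyperoxia. The part of dissociation in these values was not tested.

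**Figure D5:**
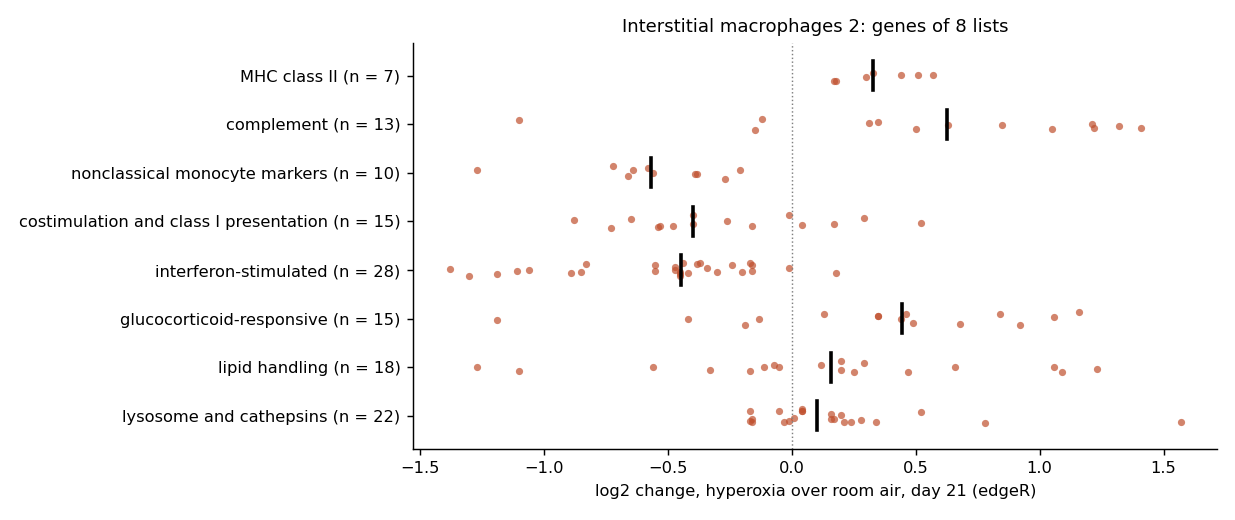
Log2 changes of single genes (points) after hyperoxia at day 21 in the class, by edgeR, for 8 gene lists, with each list's median as a black bar and the number of genes tested in brackets. MHC class II genes lie above 0 and 27 of 28 interferon-stimulated genes below 0; no gene shown was called.

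The remaining lists gave no call either. The 22 lysosome genes had a median log2 change of 0.103, the 18 lipid genes 0.157, the 20 genes of iron, heme and oxidative stress 0.0983 and the 16 p53 targets 0.0497. Other lists lay further from 0. The median was 0.613 for 11 scavenger and lectin receptors, 0.628 for 13 general macrophage markers and 0.503 for 11 markers of the nerve-associated type. It was 0.927 for 5 perivascular, 1.46 for 3 neutrophil and -0.879 for 2 endothelial markers. These lists were not followed without male room air. Trem2, a lipid receptor, stood at 61.4 and 30.5 CPM in female and male room air and at 148 and 66.7 in hyperoxia (edgeR log2 change 1.23 ± 0.306 SE, unadjusted p = 0.00236, adjusted p = 1). Of 7 chemokine ligands tested, 6 were above 0 (median log2 change 0.813), and both hyperoxia libraries lay above both room air libraries for 2, where 15.2% of all genes did so. These were Ccl6 and Ccl9, chemokines that attract myeloid cells, with Ccl9 at 226 and 190 CPM in room air and 375 and 341 in hyperoxia. Cd209a, a lectin of monocyte-derived and dendritic cells, stood at 11.7 and 7.96 CPM in room air and at 51.1 and 53.8 in hyperoxia (log2 change 2.42 ± 0.455 SE, edgeR adjusted p = 0.426). It passed the filter on low counts through the hyperoxia libraries alone. With the female hyperoxia cells without Xist left out, 3 genes were called: Retnla, Fn1 and Cd209a (edgeR adjusted p = 0.0484 for Cd209a).

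Fn1, which encodes the matrix protein fibronectin, responded differently from its response in alveolar macrophages. In interstitial macrophages 2 it stood at 141 and 80.9 CPM in female and male room air and at 224 and 400 in female and male hyperoxia. In alveolar macrophages it stood at 352 and 224 CPM in room air and at 144 and 166 in hyperoxia. Both hyperoxia libraries lay above both room air libraries in the one class and below them in the other. The difference of the hyperoxia effects was 2.49 ± 0.273 on the log2 scale (SE, edgeR with a block per library, adjusted p = 0.0113), and it was called in all 9 alternatives run, with adjusted p from 6.67e-12 to 0.0461. Within interstitial macrophages 2 alone the change of Fn1 was 1.51 ± 0.367 (edgeR adjusted p = 1).

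Against alveolar macrophages, 30 of 10301 genes tested differed in their hyperoxia effect (0.291%), 2 with a higher and 28 with a lower effect in interstitial macrophages 2. The higher ones were Fn1 and Retnla. With Scrublet doublets left out, Fn1 and Retnla were the only calls. This comparison was not run with the highest Retnla cell of each library left out. That cell held 97.9% of the Retnla UMIs of the class in female hyperoxia and 73.2% in male hyperoxia. Hpgd, a prostaglandin-degrading enzyme, and Tspan13 were among the other 28. Hpgd stood at 852 and 748 CPM in room air and 577 and 477 in hyperoxia in interstitial macrophages 2, and at 20 and 29.9 and then 278 and 171 in alveolar macrophages. With doublets left out, its level in alveolar macrophages was 16.9 and 16.4 in room air and 24.6 and 34 in hyperoxia. Cldn5, an endothelial junction gene, moved with it in alveolar macrophages, from 9.72 and 15.6 CPM to 262 and 139 with all cells. Against nonclassical monocytes, edgeR called 0 of 10791 genes (0%), 392 had an unadjusted p under 0.05, and DESeq2 called 0. Interstitial macrophages 1 had too few cells at day 21 for this test. The comparisons with the other classes use the same 4 values of interstitial macrophages 2.

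Between the sexes, edgeR with treatment as a covariate called 8 of 6762 genes (0.118%), 1 higher in females and 7 higher in males. Xist was higher in females, with 354 UMIs in female room air, 83 in female hyperoxia, 1 in male room air and 0 in male hyperoxia (adjusted p = 0.000117). The Y-linked genes Ddx3y (69 and 31 UMIs in male room air and hyperoxia, adjusted p = 0.00504), Uty (55 and 19) and Eif2s3y (35 and 16) had no UMI in either female library. The other 4 calls were B cell genes: Igkc, the kappa light chain, Ly6d, Ebf1 and Cd79a. Igkc had 91 and 211 UMIs in male room air and hyperoxia and 3 and 1 in the female libraries. With the 4 male cells that had 10 or more UMIs of B cell markers left out, 1 gene was called, Xist. The Y-linked genes lost their calls there as well, with log2 changes of -8.63 for Ddx3y, -8.09 for Uty and -7.62 for Eif2s3y, against -8.65, -8.22 and -7.68 with all cells. Cells without an Xist UMI were 4 of 53 in female room air and 14 of 28 in female hyperoxia, and 1 male room air cell had its library's single Xist UMI.

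The day 1 cells were too few for a test, with 13 and 17 cells per library. H2-Aa stood at 3654 CPM in the female and 2089 in the male library, against 3974 and 2632 in room air at day 21. Ciita was lower at day 1, at 31 and 15.1 CPM against 175 and 101 at day 21. Ccr2 stood at 1087 and 1377 CPM at day 1 and at 819 and 712 at day 21. Fn1 stood at 574 and 745 CPM at day 1 and 141 and 80.9 at day 21, while Ace, an enzyme that nonclassical monocytes also express, had no UMI at day 1, where 3 UMIs would be 15.5 and 11.4 CPM, and stood at 270 and 638 at day 21. C1qa stood at 445 and 163 CPM at day 1, and 4 of 13 and 6 of 17 cells had 10 or more C1q UMIs. The counts were made with Cell Ranger 6.0.0 at day 1 and 7.0.1 at day 21, so age and software version cannot be told apart.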

How the data were processed

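Deposited counts were UMIs of each gene in each barcode of 6 libraries. The authors' counting used Cell Ranger (6.0.0 at day 1 and 7.0.1 at day 21, per the file headers), and Seurat 4.1.1 is named in the submitters' processing notes with the build mm10. Classes and map coordinates are those of the authors' deposited annotation. Members and gene lists were chosen with earlier results of these data known.

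Counts were summed per library over the cells of a class. Genes passed filterByExpr, libraries were scaled by TMM, and edgeR 4.0.16 (limma 3.58.1, R 4.3.3) gave quasi-likelihood tests with Benjamini-Hochberg adjustment over all genes tested, with sex as the covariate for treatment and treatment for sex. Differences between classes used an interaction with a block per library. The block for treatment is sex, the replicate number that the labels' sex gives. The fits were run on simulated counts with known changes and a common dispersion for all genes. The hyperoxia fit recovered 20.3% of the genes with a log2 change of 1, 78% at 2 and 98.6% at 3, with 7 false calls. The interaction with nonclassical monocytes recovered 9.46%, 55.7% and 73.2%, with 5 false calls. At a log2 change of 1 the sex fit recovered 18.8% and the interaction with alveolar macrophages 10.4%. Most 2-fold changes would therefore be missed. Shares have exact binomial and single CPM values exact Poisson 95% intervals, and ratios of shares a log-normal one. Doublets were called with Scrublet (scanpy 1.11.5). DESeq2 1.42.0 was an alternative. Named genes were the called genes of the treatment fit with at least 20 UMIs in each library of the higher side and 1 direction in both sexes, up to 10 called genes of the sex fit with no UMI minimum, 5 per direction of each interaction, 15 class genes by their smallest ratio, and genes of the lists; Cd209a, Fn1 in the treatment fit and Cldn5 were chosen after their values were seen. Age was not tested, since day 1 had under 20 cells per library. Of the 32285 genes in the files, 32158 matched GENCODE M21 (GRCm38).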

Additional observations from a re-analysis of the deposited data

Results flagged for a closer look

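C1q differed in direction between the sexes after hyperoxia, and the difference was not tested. C1qa stood at 1478 CPM in female room air and 1003 in female hyperoxia, but at 103 in male room air and 1233 in male hyperoxia. C1qb stood at 1358 and 1102 in the female room air and hyperoxia libraries, and at 150 and 1233 in the male ones. C1qc stood at 997 and 648 in the female and at 58.3 and 603 in the male libraries. Each combination is 1 library, and the UMIs lay in few cells: those with 10 or more C1q UMIs were 34% and 32.1% of the female room air and hyperoxia cells, and 5.88% and 37% of the male ones.

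The hyperoxia effect differed between interstitial macrophages 2 and alveolar macrophages for 30 genes by edgeR's interaction test, of which 2 were called with doublets left out.

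C1q-rich barcodes also lay outside the authors' classes. At day 21, barcodes without a class with 10 or more C1q UMIs numbered 24 in female room air, 24 in male room air, 29 in female hyperoxia and 37 in male hyperoxia. Scrublet called 14, 6, 7 and 4 of these doublets, and their median depths were 24156, 15608, 16962 and 14564 UMIs in the same order. Male room air, where the class held 3 C1q-rich cells, had 24 of them without a class.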

How the results depend on the processing

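The count of 1 gene called after hyperoxia became 0 with DESeq2, 0 without the replicate block (no sex covariate), 0 with doublets left out, 0 with equal cells per library, 0 with the highest Retnla cells left out and 0 with B cell marker cells left out. It became 3 without the female hyperoxia cells lacking Xist, 4 in the upper map group only and 38 with no filter on low counts. Without 1 library at a time it ran from 1 to 246, with 246 without female room air, 20 without male room air and 8 without female hyperoxia. The 8 sex calls became 2 with DESeq2, 5 with no treatment covariate, 96 with no filter and 1 without B cell marker cells, and 6 to 82 without 1 library (82 without male hyperoxia, 25 without male room air). The 30 calls against alveolar macrophages became 67 with DESeq2, 2 with doublets left out, 355 with no filter and 168 in the upper map group, and 28 to 368 without 1 library (291 without female room air, 113 without male hyperoxia, 368 without male room air). The 0 calls against nonclassical monocytes became 83 with no filter and 7 in the upper map group, and 2 to 115 without 1 library (115 without male room air). The ratio of shares became 0.935 in females and 0.742 in males among macrophages and monocytes only. The cause was not tested for any of these. The treatment and sex fits without 1 library had no covariate, and a lone sample is assumed to vary like the others. Retnla kept its call in 9 of the 14 alternatives that gave it a value, it was not called in the other 2 (highest Retnla cells left out, upper map group only), and no called gene followed here reversed. Genes named from the lists without a call were followed at most through their list's median. The alternatives on the B cell markers, the Retnla cell and the map group were chosen after seeing the data. Leaving out cells with 2 or more UMIs of other lineages was not run, since 4, 2, 0 and 1 cells were left, and neither was any fit of age or of interstitial macrophages 1. The 27 to 53 cells per library limit the precision of single genes.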
